A study of Mus musculus with 12 samples.

Results

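Transcripts of 9 complement genes were followed in brain tissue after intracerebral hemorrhage (ICH). The set comprised C1qa, C1qb and C1qc, C4b, C3, Cfb, the receptors C3ar1 and C5ar1, and the inhibitor Serping1. They were taken by symbol from the deposited count table, where they make up 9 of 21956 genes, and all 9 passed the filter on low counts in every comparison. Hemorrhage had been induced by injecting collagenase into the right striatum, and tissue next to the hematoma was collected 48 h later for polyA RNA sequencing. There were 4 groups with 3 libraries each. Sham-Fabp4fl_fl and ICH-Fabp4fl_fl mice carried floxed Fabp4 alleles. Sham-Fabp4CKO and ICH-Fabp4CKO mice carried the same alleles together with a tamoxifen-inducible Cre driven by Tmem119, a gene of microglia, and had been given tamoxifen before surgery. Sham surgery left out the collagenase. Whether the Fabp4fl_fl mice also received tamoxifen, and the age and sex of the mice sequenced, are not given in the sources used here. Each library is called a mouse below by its number in the labels, although the labels do not say that the libraries of a group came from separate animals, so that p-values measure the spread between these libraries.

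Complement is a cascade of plasma and tissue proteins that tags cells and debris for removal and attracts leukocytes. In the classical pathway, the C1q hexamer of trimers built from C1QA, C1QB and C1QC chains recognizes a surface and activates the C1r and C1s proteases, which cleave C4 and C2 to form a C3 convertase. The alternative pathway amplifies cleavage of C3 through factor B, and the released C3a and C5a fragments act on the receptors C3aR1 and C5aR1. In the brain, microglia are the main source of C1q, reactive astrocytes express C3 and C4b, and C1q with C3 tags synapses for removal by microglia.

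The 12 libraries held between 15650830 and 22406222 counts each. Fabp4, the deleted gene, had 46, 63 and 24 counts in ICH-Fabp4fl_fl mice and 5, 3 and 10 in ICH-Fabp4CKO mice, against at most 2 in any sham library. The 9 complement genes together took 0.0256% ± 0.00934 (SD, n = 3) of all counts in Sham-Fabp4fl_fl, 0.0208% ± 0.00085 in Sham-Fabp4CKO, 0.258% ± 0.0672 in ICH-Fabp4fl_fl and 0.457% ± 0.224 in ICH-Fabp4CKO. Some libraries stood apart. The summed level of 4 choroid plexus markers was 847 to 3162 CPM (counts scaled to the library size with TMM factors) in the Sham-Fabp4fl_fl mice and 42.1 to 48.8 CPM in the Sham-Fabp4CKO mice. ICH-Fabp4CKO mouse 1 had 1 count over 4 Y-linked genes, where the other 11 libraries had 1302 to 2251. Mitochondrial genes took 16.3% of the counts of ICH-Fabp4fl_fl mouse 1, the highest share of all libraries. In bulk tissue a change in the number of cells of a type cannot be told apart from a change in RNA per cell.

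The C1q chains, which recognize antibodies, dying cells and synapses, rose about 10-fold after ICH in floxed mice and more than 20-fold in knockout mice. C1qa (ENSMUSG00000036887) was at 87.5, 48.3 and 50.7 CPM in Sham-Fabp4fl_fl mice 1 to 3 and at 895, 483 and 453 CPM in the ICH-Fabp4fl_fl mice. It was at 53.8, 57.7 and 54.6 CPM in the Sham-Fabp4CKO mice and at 1318, 554 and 1939.5 CPM in the ICH-Fabp4CKO mice. The lowest ICH library thus lay above the highest sham library in both genotypes, while the 2 ICH groups overlapped. C1qb (ENSMUSG00000036905) went from 83.5, 51.3 and 47.0 to 989, 483 and 468 CPM in Fabp4fl_fl mice and from 48.6, 63.4 and 50.9 to 1168, 498 and 1813 CPM in Fabp4CKO mice. C1qc (ENSMUSG00000036896) went from 84.9, 50.6 and 49.6 to 953, 490.1 and 495 CPM and from 55.1, 61.6 and 51.5 to 1399.8, 528 and 2169 CPM. The same mice were high and low for all 3 chains. ICH-Fabp4CKO mouse 3 was highest, followed by ICH-Fabp4CKO mouse 1 and ICH-Fabp4fl_fl mouse 1. Among sham mice the highest library for each chain was Sham-Fabp4fl_fl mouse 1.

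Tested with edgeR (quasi-likelihood, p-values adjusted over all genes), the fold change of C1qa in Fabp4fl_fl mice was 9.51 (95% interval 4.72 to 19.2, adjusted p = 0.00075). In Fabp4CKO mice the same test gave a fold change of C1qa of 23.0 (8.89 to 59.4, adjusted p = 0.00549). The log2 fold changes of C1qb and C1qc in Fabp4fl_fl mice were 3.37 and 3.34, and in Fabp4CKO mice 4.42 and 4.61. The 3 chains kept nearly equal shares of the C1q counts throughout. C1qa made up 31.6 to 33.2% of them in ICH-Fabp4fl_fl mice, 32.8 to 35.1% in ICH-Fabp4CKO mice and 32.1 to 34.4% in Sham-Fabp4fl_fl mice. C1qb ranged from 33.0 to 34.9% in ICH-Fabp4fl_fl mice and, without overlap, from 30.1 to 31.5% in ICH-Fabp4CKO mice. C1qc ranged from 33.6 to 35.0% and from 33.4 to 36.6% in the same groups. The difference in the share of C1qb was not tested.

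The promoters of genes that moved so closely together are shown beside that of C3, which varied among the ICH mice in another order. RefSeq sequences (assembly GRCm38.p6) were given for 5 of the 9 genes, and the 250 bases before the start of C1qb (chr4:136886201-136886450, minus strand), C1qc (chr4:136892915-136893164, minus strand) and C3 (chr17:57228137-57228386, minus strand) read, 5′ to 3′, with matches to the searched motifs in capitals:
C1qb: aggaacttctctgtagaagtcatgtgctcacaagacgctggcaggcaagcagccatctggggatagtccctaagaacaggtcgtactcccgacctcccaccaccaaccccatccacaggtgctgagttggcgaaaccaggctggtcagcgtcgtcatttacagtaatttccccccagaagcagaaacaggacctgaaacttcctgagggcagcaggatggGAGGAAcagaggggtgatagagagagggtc
C1qc: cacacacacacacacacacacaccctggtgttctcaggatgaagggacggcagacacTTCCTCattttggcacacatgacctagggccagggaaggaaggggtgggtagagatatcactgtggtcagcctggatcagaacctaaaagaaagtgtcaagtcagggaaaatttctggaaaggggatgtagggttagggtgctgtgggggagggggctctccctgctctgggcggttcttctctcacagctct
C3: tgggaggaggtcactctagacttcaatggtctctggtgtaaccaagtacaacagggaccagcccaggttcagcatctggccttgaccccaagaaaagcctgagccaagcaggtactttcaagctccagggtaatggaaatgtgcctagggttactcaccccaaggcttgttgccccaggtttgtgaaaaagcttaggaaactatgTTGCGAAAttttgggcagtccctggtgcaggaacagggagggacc
The searched motifs were GAGGAA (the core bound by PU.1, a factor of myeloid cells), TTGCNNAA (C/EBP), GAAANNGAA (IRF), TTCNNNGAA (GAS, the STAT element) and GGANNTTCC (NF-kB), each on both strands. C1qb held the PU.1 core 25 to 30 bases before its start, and C1qc held its reverse complement 188 to 193 bases before. C3 held a C/EBP match 38 to 45 bases before its start, C5ar1 an IRF match 58 to 66 bases before, and C3ar1 no match. Among 32851 promoters of the same length, 23.3% held the PU.1 core, 9.56% the C/EBP, 7.13% the IRF, 7.02% the GAS and 3.59% the NF-kB letters, so that each match is a description of the sequence and not evidence of binding. C1qa, C4b, Cfb and Serping1 were not in the sequence table.

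**Figure D1:**
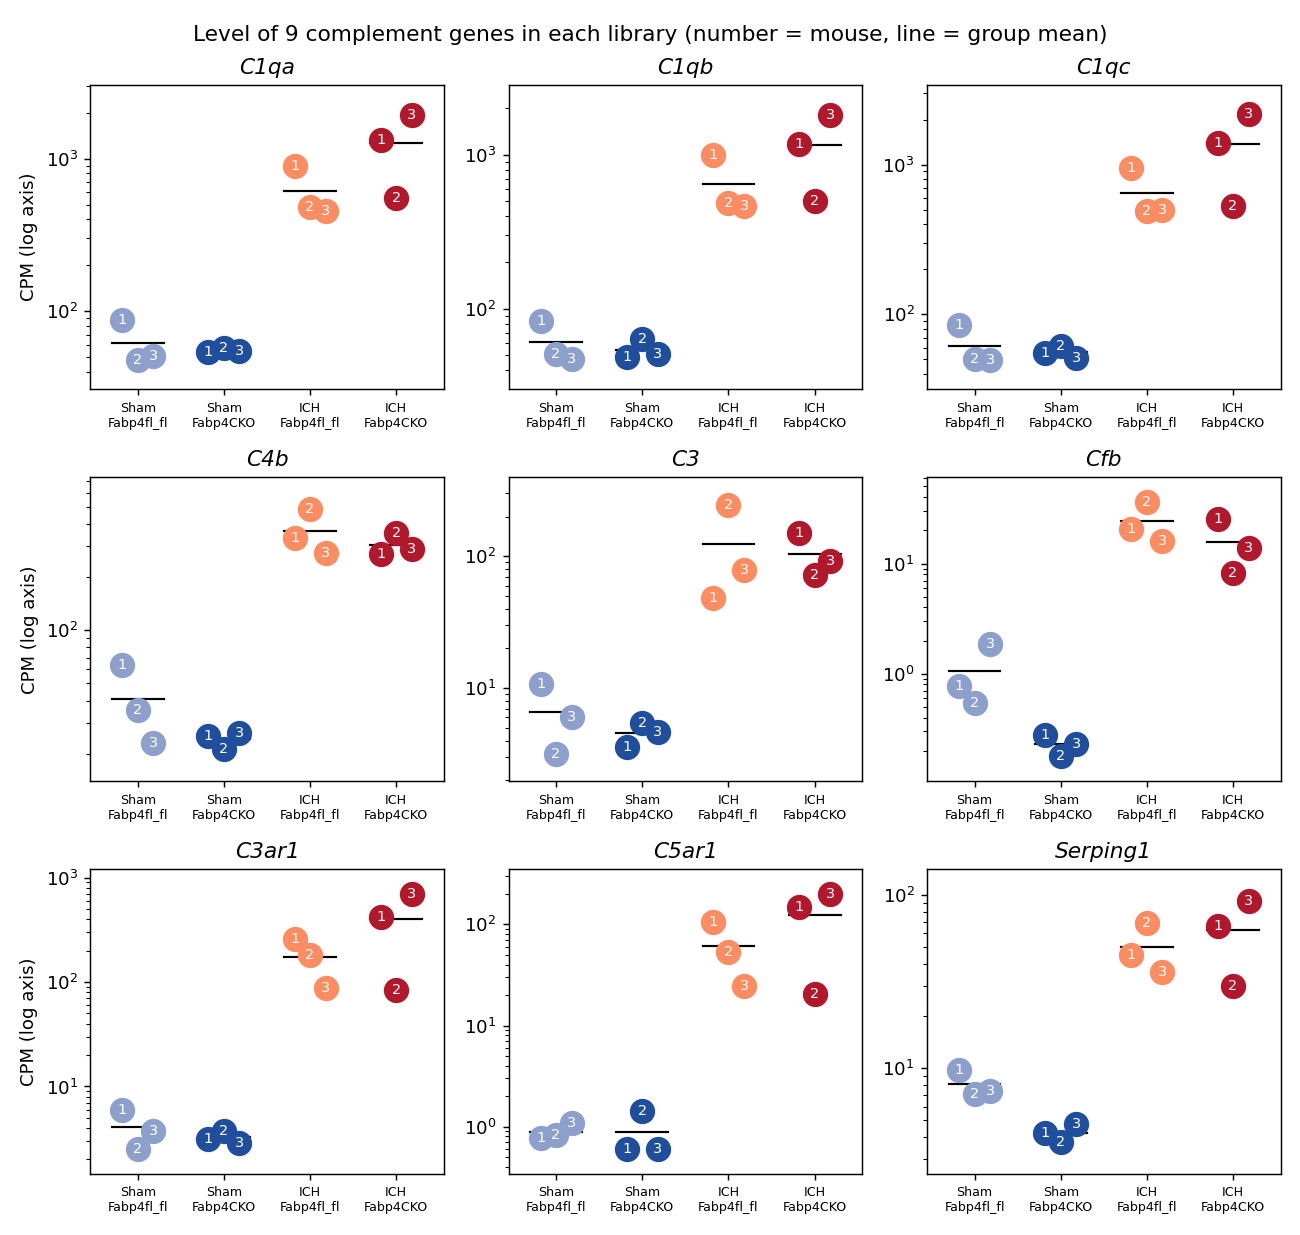
Level of each of the 9 genes in every library, in CPM on a log axis, with the mouse number in each point and the group mean as a line. All ICH libraries lie above all sham libraries of the same genotype in each panel, and mice 1 and 3 of ICH-Fabp4CKO lie well above mouse 2 for the C1q chains, C3ar1 and C5ar1 but not for C4b.

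C4b, the component cleaved by the classical C1 complex, rose after ICH in both genotypes. C4b (ENSMUSG00000073418) was at 63.8, 35.5 and 23.1 CPM in Sham-Fabp4fl_fl and at 331, 484 and 274 CPM in ICH-Fabp4fl_fl mice. In Sham-Fabp4CKO it was at 25.3, 21.2 and 26.1 CPM, against 271, 355 and 287 CPM in ICH-Fabp4CKO mice. Sham and ICH did not overlap in either genotype, and the ICH-Fabp4CKO mice with the most C1q did not have the most C4b. The fold change was 8.64 (95% interval 3.94 to 19.0, adjusted p = 0.00133 by edgeR) in Fabp4fl_fl mice and 12.6 (8.95 to 17.7, adjusted p = 0.00439 by edgeR) in Fabp4CKO mice. The SD of log2 CPM within ICH-Fabp4CKO was 0.21 for C4b and 0.93 for C1qa, where the median over all 15089 genes was 0.36. Within ICH-Fabp4fl_fl it was 0.42 for C4b and 0.54 for C1qa, where the median over all genes was 0.29. C4a, a near-identical neighbour of C4b, was not analysed here, and reads of both copies may have been counted under C4b.

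C3, where all activation pathways meet, rose 18.1-fold in Fabp4fl_fl mice (95% interval 4.49 to 72.9, adjusted p = 0.00402 by edgeR). C3 (ENSMUSG00000024164) was at 10.7, 3.18 and 6.09 CPM in Sham-Fabp4fl_fl and at 48.5, 246 and 78.1 CPM in ICH-Fabp4fl_fl mice. It was at 3.56, 5.42 and 4.69 CPM in Sham-Fabp4CKO and at 149, 72.7 and 92.2 CPM in ICH-Fabp4CKO mice, a 23.0-fold rise (11.8 to 44.7, adjusted p = 0.00478 by edgeR). All ICH libraries lay above the sham libraries, and the mouse with the highest C3, ICH-Fabp4fl_fl mouse 2, was among the lower ones for C1q. ICH-Fabp4fl_fl mouse 1, the highest of its group for C1q, had the lowest C3. Without ICH-Fabp4fl_fl mouse 2 the log2 fold change in Fabp4fl_fl mice was 3.18 in place of 4.18.

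Cfb encodes factor B, the protease of the alternative pathway convertase, and was near the limit of counting in sham tissue. Cfb (ENSMUSG00000090231) had 16, 10 and 36 counts in Sham-Fabp4fl_fl and 6, 4 and 5 counts in Sham-Fabp4CKO mice. After ICH it was at 20.6, 35.9 and 15.9 CPM in Fabp4fl_fl mice, from 0.771, 0.548 and 1.86 CPM, and at 25.4, 8.15 and 13.9 CPM in Fabp4CKO mice, from 0.277, 0.179 and 0.230 CPM. The ICH libraries lay above all sham libraries, and their highest was again ICH-Fabp4fl_fl mouse 2. The fold change was 21.9 (95% interval 8.23 to 58.2, adjusted p = 0.000797 by edgeR) in Fabp4fl_fl and 67.4 (22.9 to 198, adjusted p = 0.00478 by edgeR) in Fabp4CKO mice, and without Sham-Fabp4fl_fl mouse 3 the log2 value in Fabp4fl_fl mice was 5.08 in place of 4.45. Exons of Cfb overlap those of Gm20547 on the same strand, so the split of counts between them is uncertain, but Gm20547 had counts in only 3 of the 12 libraries, at most 13.

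The anaphylatoxin receptors showed the largest changes of the 9 genes in both genotypes. C3ar1 (ENSMUSG00000040552), the receptor of C3a, was at 5.93, 2.52 and 3.72 CPM in Sham-Fabp4fl_fl and at 258, 181 and 88.1 CPM in ICH-Fabp4fl_fl mice. In Fabp4CKO mice it went from 3.14, 3.72 and 2.90 CPM to 423, 83.9 and 699 CPM. Its levels did not overlap between sham and ICH, and ICH-Fabp4CKO mouse 2 had the lowest level of all ICH mice. The fold change was 41.6 (95% interval 16.1 to 107, adjusted p = 0.000419 by edgeR) in Fabp4fl_fl mice and 124 (23.0 to 663, adjusted p = 0.00601 by edgeR) in Fabp4CKO mice, where its log2 value went from 6.95 to 6.26 without ICH-Fabp4CKO mouse 3.

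C5ar1 (ENSMUSG00000049130), the receptor of C5a, was barely detected in sham tissue, at 0.771, 0.822 and 1.08 CPM in Sham-Fabp4fl_fl and 0.601, 1.43 and 0.598 CPM in Sham-Fabp4CKO mice. It reached 106, 53.6 and 24.8 CPM in ICH-Fabp4fl_fl and 147, 20.6 and 202 CPM in ICH-Fabp4CKO mice. The order of the ICH mice was that of C3ar1, and the highest ICH-Fabp4CKO mouse had 9.80 times the level of the lowest, compared with 8.33 times for C3ar1, 3.50 times for C1qa and 1.31 times for C4b. The fold change was 65.7 (95% interval 21.2 to 204, adjusted p = 0.000501 by edgeR) in Fabp4fl_fl mice, and its log2 value went from 6.04 to 5.41 without ICH-Fabp4fl_fl mouse 1. It was 139 (19.3 to 1004, adjusted p = 0.00764 by edgeR) in Fabp4CKO mice, and without Sham-Fabp4CKO mouse 3 the adjusted p of this comparison by edgeR was 0.0507.

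Serping1 encodes C1 inhibitor, which blocks C1r, C1s and the lectin pathway proteases, and it had the smallest fold change of the 9 genes in Fabp4fl_fl mice. Serping1 (ENSMUSG00000023224) was at 9.74, 7.12 and 7.38 CPM in Sham-Fabp4fl_fl and at 45.2, 69.2 and 36.1 CPM in ICH-Fabp4fl_fl mice. It was at 4.21, 3.76 and 4.74 CPM in Sham-Fabp4CKO and at 66.2, 29.8 and 92.1 CPM in ICH-Fabp4CKO mice. Sham and ICH did not overlap in either genotype, and the Sham-Fabp4CKO mice all lay below the Sham-Fabp4fl_fl mice. The fold change after ICH was 6.02 (95% interval 3.60 to 10.1, adjusted p = 0.000591 by edgeR) in Fabp4fl_fl mice and 14.8 (6.34 to 34.6, adjusted p = 0.00549 by edgeR) in Fabp4CKO mice.

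In all, 9 of 9 genes rose after ICH in Fabp4fl_fl mice, where 26.2% of all genes tested rose, and all 9 were higher in every ICH library than in any sham library, which held for 33.6% of genes. Their median log2 fold change was 3.37, against 0.02 over all genes. In Fabp4CKO mice 9 of 9 also rose, where 24.5% of genes did, and all 9 were without overlap, as were 33.3% of genes in that direction. Their median log2 fold change was 4.52, against 0.01 over all genes.

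**Figure D2:**
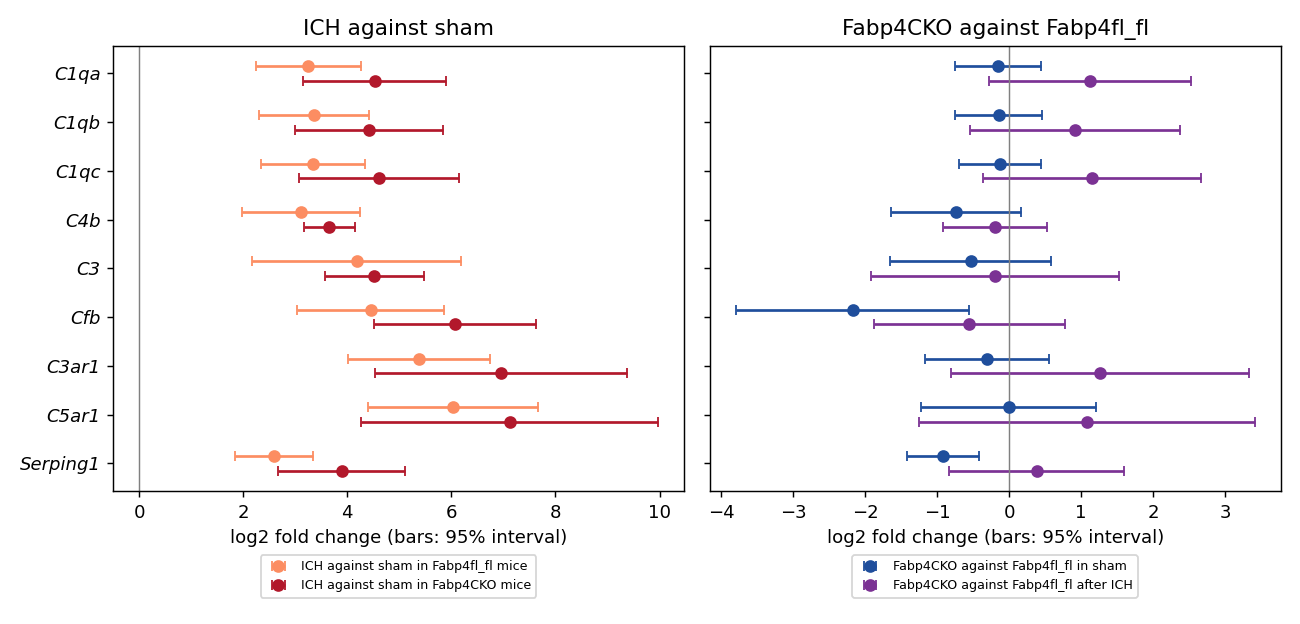
Log2 fold changes of the 9 genes with 95% intervals, for ICH against sham in each genotype (left) and for Fabp4CKO against Fabp4fl_fl in sham and after ICH (right). All intervals on the left lie above 0, and the log2 fold changes in Fabp4fl_fl mice run from 2.59 for Serping1 to 6.04 for C5ar1. On the right the intervals of Serping1 and Cfb in sham lie below 0 while the intervals after ICH include 0.

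The comparison of genotypes after ICH asked whether loss of microglial Fabp4 altered complement expression in injured tissue. None of the 9 genes passed the adjusted threshold of edgeR, where 0% of the 14600 genes tested were called higher and 0% lower, although 1777 genes had an unadjusted p under 0.05 and DESeq2 called 578 genes. None of the 9 had an unadjusted p under 0.05 or was called by DESeq2. All 9 genes overlapped between the ICH groups, whereas 10.3% of genes were higher and 9.71% lower in every ICH-Fabp4CKO library. The fold of ICH-Fabp4CKO to ICH-Fabp4fl_fl was 2.18 for C1qa (95% interval 0.826 to 5.73, adjusted p = 0.435 by edgeR). For C3ar1 it was 2.40 (0.573 to 10.1, adjusted p = 0.53 by edgeR) and for C5ar1 2.11 (0.421 to 10.6, adjusted p = 0.629 by edgeR). Without ICH-Fabp4CKO mouse 3 the log2 value of C3ar1 was 0.60 in place of 1.26, and without ICH-Fabp4fl_fl mouse 1 that of C5ar1 was 1.69 in place of 1.08, against 0.52 without ICH-Fabp4CKO mouse 3. These intervals do not show equal levels, since they also include differences of several-fold. The narrowest interval was that of C4b, whose fold was 0.873 (0.529 to 1.44, adjusted p = 0.789 by edgeR). C3 and Cfb had folds of 0.874 and 0.682, and the sign for C3 turned when ICH-Fabp4fl_fl mouse 2 was left out (log2 fold change -0.19 with it and 0.76 without it).

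The higher means of the C1q chains, C3ar1 and C5ar1 in ICH-Fabp4CKO came from mice 1 and 3. Mouse 1 was also the library with 1 count over the Y-linked genes, against 1302 to 2251 in the other 11. The part of this difference in the comparison of genotypes was not tested. In ICH-Fabp4CKO mice 1 and 3, several cell type marker lists were also high. The summed level of 8 microglia markers was 2956 and 4357 CPM in ICH-Fabp4CKO mice 1 and 3, 1493 CPM in mouse 2 and 1450 to 1697 CPM in ICH-Fabp4fl_fl mice. The sum of 8 monocyte and macrophage markers was 710 and 791 CPM in ICH-Fabp4CKO mice 1 and 3, 126 CPM in mouse 2, and 804, 374 and 153 CPM in ICH-Fabp4fl_fl mice 1 to 3, while no sham library exceeded 9.06 CPM. Arg1 held most of that sum in ICH-Fabp4fl_fl mouse 1, at 601 CPM, and was at 164 and 74.4 CPM in mice 2 and 3 and at 315, 56.1 and 307 CPM in ICH-Fabp4CKO mice 1 to 3.

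The sum of 5 fibroblast markers spread most widely, at 1140 and 2320 CPM in ICH-Fabp4CKO mice 1 and 3, 75.2 CPM in mouse 2 and 96.8 to 408 CPM in ICH-Fabp4fl_fl mice. The collagen genes Col1a1, Col1a2 and Col3a1 held most of it, at 333, 338 and 375 CPM in mouse 1 and 672, 681 and 839 CPM in mouse 3. Dcn was at 68.9 and 89.2 CPM in these mice, below the 102 CPM of ICH-Fabp4fl_fl mouse 1. Lum was at 25.6 and 38.5 CPM, against 22.7 CPM in ICH-Fabp4fl_fl mouse 1. The sum of 9 neutrophil markers was 227 and 331 CPM in ICH-Fabp4CKO mice 1 and 3, 73.6 CPM in mouse 2 and 53.5 to 96.3 CPM in ICH-Fabp4fl_fl mice. The 7 astrocyte markers summed to 5377 to 7391 CPM over all 6 ICH mice, but they did not move together. For ICH-Fabp4CKO against ICH-Fabp4fl_fl, 4 of the 7 had a positive and 3 a negative log2 value. Gfap was at 4094 to 4421 CPM in ICH-Fabp4fl_fl and 2350 to 3153 CPM in ICH-Fabp4CKO mice. Slc1a2 was at 477 to 1666 CPM and 1166 to 2715 CPM in the same groups. The part of these cell types in the levels of the complement genes was not tested. None of the microglia, macrophage or fibroblast markers stood at 0 in all ICH libraries, and in ICH-Fabp4fl_fl the neutrophil marker Ly6g did.

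**Figure D3:**
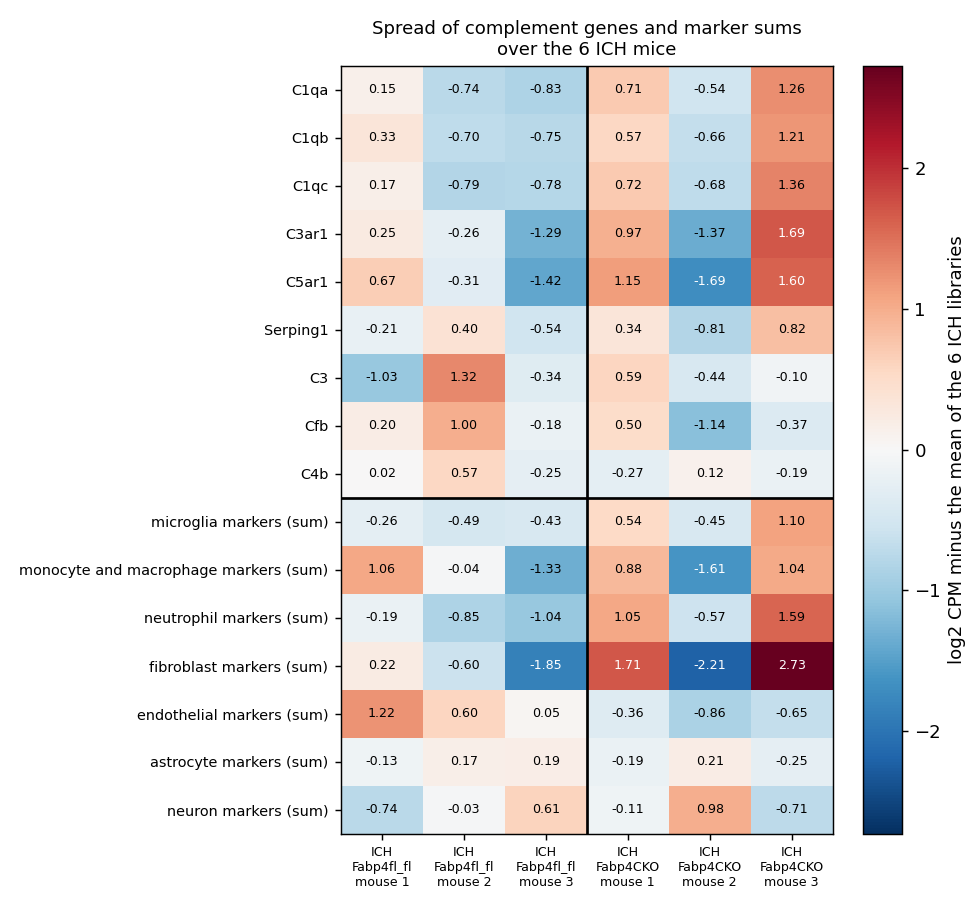
Difference of each of the 6 ICH libraries from their mean, in log2 CPM, for the 9 genes (upper rows) and for summed cell type markers (lower rows). C1qa, C1qb, C1qc, C3ar1 and C5ar1 are highest in ICH-Fabp4CKO mice 3 and 1, C3, Cfb and C4b are highest in ICH-Fabp4fl_fl mouse 2, and microglia, neutrophil and fibroblast marker sums are highest in ICH-Fabp4CKO mice 3 and 1.

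Across the 6 ICH mice, the Pearson r of log2 CPM between C1qa and the other C1q chains was 0.99 and 1.00, that between C1qa and C3ar1 0.93 and that between C3ar1 and C5ar1 0.99. Serping1 had an r of 0.88 with C3ar1. C3, Cfb and C4b did not share this order, since the r of C1qa was -0.09 with C3, -0.02 with Cfb and -0.51 with C4b. These values describe 6 libraries that share depth and composition and carry no test.

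In sham tissue the question was whether knockout mice differed without injury. None of the 9 genes passed the adjusted threshold of edgeR, where 0% of the 14395 genes tested were called higher and 0.111% lower. An unadjusted p under 0.05 was found for 2 of the 9 and for 1472 of the 14395 genes, and DESeq2 called 1 of these 2 members. Serping1 and Cfb were lower in all Sham-Fabp4CKO mice than in any Sham-Fabp4fl_fl mouse, which held for 8.16% of genes, and no member was higher without overlap, against 6.68% of genes. The log2 fold change of Serping1 was -0.92 (95% interval -1.42 to -0.42, unadjusted p = 0.00113 and adjusted p = 0.236 by edgeR), and DESeq2 gave an adjusted p of 0.00754. That of Cfb was -2.17 (-3.80 to -0.55, adjusted p = 0.407 by edgeR), on the few counts given above, and was -1.50 without Sham-Fabp4fl_fl mouse 3. C4b was at -0.74 (-1.64 to 0.16, adjusted p = 0.484 by edgeR). Without Sham-Fabp4fl_fl mouse 3 edgeR called both C4b (-1.02, adjusted p = 0.0109) and Serping1 (-0.98, adjusted p = 0.0105). Calls over all genes in sham also varied widely with the library left out, as given below. These 2 calls are therefore not read as a result about these genes.

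The C1q chains were within 0.16 of 0 on the log2 scale in sham, and their sign turned without Sham-Fabp4fl_fl mouse 1, the mouse with the most C1q in that group. Beside these values, all 4 choroid plexus markers and all 5 fibroblast markers were lower in Sham-Fabp4CKO on average, and 2 of the choroid plexus markers passed the adjusted threshold of edgeR. The sum of the fibroblast markers was 29.3 to 52.2 CPM in Sham-Fabp4fl_fl mice and at most 20.9 CPM in Sham-Fabp4CKO mice. The part of choroid plexus or fibroblast RNA in the sham levels of Serping1, Cfb and C4b was not tested. As the choroid plexus markers were low in all ICH libraries, the same difference enters ICH against sham in Fabp4fl_fl mice.

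The interaction of ICH and genotype over all 12 libraries gave positive values for all 9 genes, from 0.30 for C3 to 1.57 for Cfb on the log2 scale, although that of C3 turned negative when any of 3 single libraries was left out. None passed the adjusted threshold of edgeR, where 0.0133% of 15089 genes were called in the positive and 0.00663% in the negative direction. An unadjusted p under 0.05 was found for 1 of the 9 and for 1500 of the 15089 genes, a similar share. The 1 member was Serping1, with an interaction of 1.25 (95% interval 0.07 to 2.44, adjusted p = 0.444 by edgeR). DESeq2 called 266 genes over the table and none of the 9. Without ICH-Fabp4CKO mouse 2, the interaction of Serping1 was 1.59 (adjusted p = 0.0484 by edgeR). The number of genes called over the table also varied with the library left out, as given below. Single libraries moved other interactions as well, Cfb to 0.90 without Sham-Fabp4fl_fl mouse 3, C3 to 1.27 without ICH-Fabp4fl_fl mouse 2, C5ar1 from 1.02 to 1.71 without ICH-Fabp4fl_fl mouse 1 and to 0.47 without ICH-Fabp4CKO mouse 3, and C3ar1 from 1.52 to 0.85 without ICH-Fabp4CKO mouse 3. The comparisons share the same groups, and the lower Serping1 and Cfb of Sham-Fabp4CKO mice enters these values.

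The other genes of the cascade moved unevenly after ICH. Of 43 further complement genes taken from the table, 23 could be tested in Fabp4fl_fl mice, and 12 rose and 5 fell, where 26.2% of all genes tested rose and 19.3% fell. Their median log2 fold change was 0.80. In Fabp4CKO mice 22 could be tested, of which 9 rose and none fell, where 24.5% of all genes rose and 11.1% fell. In the classical pathway, the proteases that C1q activates rose with it. C1ra was 3.29 higher on the log2 scale and C1s1 2.89 higher in Fabp4fl_fl mice, and 4.75 and 3.24 higher in Fabp4CKO mice. C2, which forms the convertase together with C4b, had a log2 fold change of 0.03 in Fabp4fl_fl mice (adjusted p = 0.97 by edgeR) at no more than 2.02 CPM in any of these mice, and it shares an overlapping read-through locus with Cfb. C1rb and C1s2 were under the filter on low counts.

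In the alternative pathway, Cfp, which encodes properdin, a stabilizer of the convertase, rose by 4.43 in Fabp4fl_fl and 5.59 in Fabp4CKO mice on the log2 scale. Like the receptors it ran lowest in ICH-Fabp4CKO mouse 2, at 7.25 CPM, against 75.1 and 134 CPM in mice 1 and 3. Of the lectin pathway, Masp1, encoding a protease, was the one gene tested in Fabp4fl_fl mice, with a log2 fold change of 1.17. Mbl1, Mbl2, Fcna, Fcnb, Colec10, Colec11 and Masp2 fell under the filter there, as did Cfd. Of the terminal pathway, which forms the membrane attack complex, Hc (encoding C5) was tested, at -0.83 (adjusted p = 0.358 by edgeR) and no more than 0.964 CPM in these mice, while C6, C7, C8a, C8b, C8g and C9 fell under the filter. Transcripts of the ligand C5 were thus near the limit of detection in tissue where C5ar1 was high, and protein from plasma is not measured here.

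All 6 receptor genes that could be tested rose in both genotypes, where 26.2% of all genes tested rose in Fabp4fl_fl and 24.5% in Fabp4CKO mice. Besides C3ar1 and C5ar1, these were C5ar2, the second receptor of C5a (2.37 and 3.48 on the log2 scale in Fabp4fl_fl and Fabp4CKO mice), Itgam (3.26 and 4.09) and Itgax (3.12 and 7.998), whose products are the alpha chains of complement receptors 3 and 4, and their shared beta chain Itgb2 (4.13 and 5.71). The sham level of Itgax was 6.65 CPM in Sham-Fabp4fl_fl mouse 1 and no more than 0.767 CPM in the other sham mice. Cr2 and Vsig4 were under the filter.

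Among soluble regulators, Clu, encoding clusterin, rose by 0.59 in Fabp4fl_fl and 0.62 in Fabp4CKO mice on the log2 scale. Vtn, encoding vitronectin, rose by 1.17 in Fabp4fl_fl mice and had a log2 fold change of 0.21 in Fabp4CKO mice (adjusted p = 0.262 by edgeR). Cfi, encoding factor I, was called in Fabp4fl_fl mice at 0.585 to 1.13 CPM after ICH and no more than 0.0548 CPM in sham, and C4bp was under the filter. The interaction of ICH and genotype called none of these genes.

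Of 10 membrane regulators tested in Fabp4fl_fl mice, 1 rose and 5 fell, where 26.2% of all genes rose and 19.3% fell. Cr1l, the rodent relative of complement receptor 1 that restrains convertases, rose by 0.92 in Fabp4fl_fl mice. Cd55, encoding decay-accelerating factor, fell by 1.51 on the log2 scale, and the neuronal complement inhibitors Csmd1, Susd4, Sez6l and Sez6l2 fell by 1.64, 1.48, 2.58 and 0.54. The log2 fold changes of the other 4, which did not pass the threshold, were 0.80 for Cd46, 0.10 for Cd59a, 0.03 for Cd59b and -0.47 for Sez6. In Fabp4CKO mice none of the 10 membrane regulators tested passed the threshold, where 24.5% of all genes rose and 11.1% fell. An unadjusted p under 0.05 was found for 5 of the 10 and for 7726 of the 14737 genes tested, a similar share. The log2 values were -0.45 for Cd55 and -1.57 for Sez6l (adjusted p = 0.218 and 0.0783 by edgeR). Over the same comparison in Fabp4fl_fl mice, 4 of 6 neuron markers fell and none rose. The part of neuron content in the fall of Csmd1, Susd4, Sez6l and Sez6l2 was not tested. Cd55b was under the filter.

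**Figure D4:**
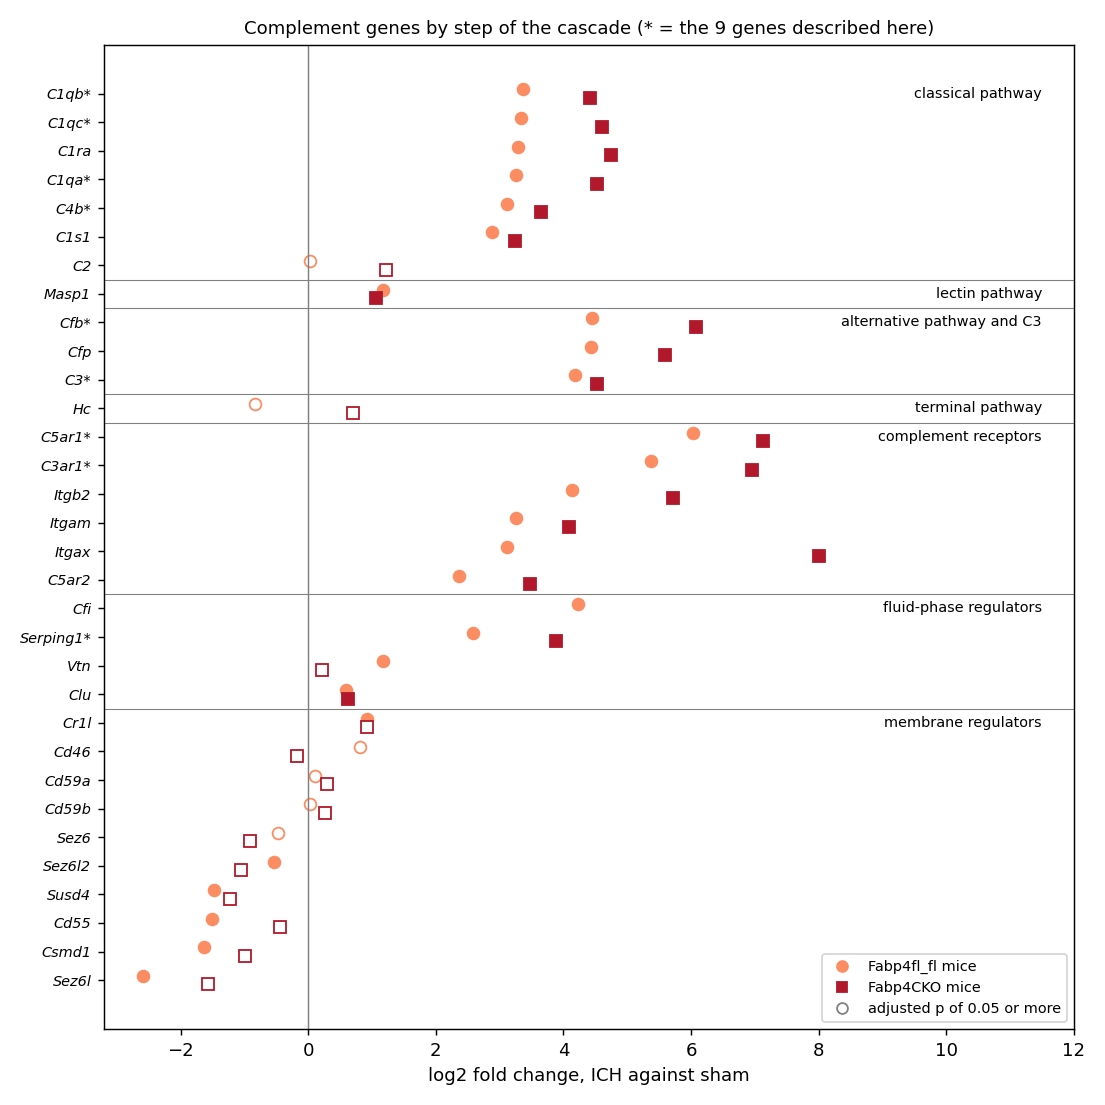
Log2 fold change of ICH against sham for each listed complement gene that could be tested, grouped by step of the cascade, in Fabp4fl_fl mice (circles) and Fabp4CKO mice (squares), with filled symbols for an adjusted p under 0.05. Classical, alternative and receptor genes lie to the right apart from C2, while Sez6l at -2.58 marks the left end among the membrane regulators.

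The genes whose log2 CPM followed each component most closely over the 12 libraries differed between components. For C1qa they were Tyrobp, Trem2 and Laptm5, genes of microglia and other myeloid cells, each with a Pearson r of 1.00 over the 12 libraries and 0.99 to 1.00 within the 6 ICH libraries. For C4b they were Gfap, the astrocyte filament gene, with an r of 0.99, the urea transporter gene Slc14a1 with 0.99 and the interferon-induced Ifit3 with 0.99. Gfap ran from 128 to 398 CPM in Sham-Fabp4fl_fl mice and from 4094 to 4421 CPM in ICH-Fabp4fl_fl mice. In Fabp4CKO mice it ran from 137 to 155 CPM in sham and from 2350 to 3153 CPM after ICH. Within the ICH mice the r of C4b was 0.41 with Gfap, 0.65 with Slc14a1 and 0.42 with Ifit3.

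For C3 the closest genes were Ikzf3, Itgal and Tnfaip2 (0.98, 0.98 and 0.97), of which Ikzf3, a lymphocyte transcription factor gene at no more than 2.06 CPM, had an r with C3 of 0.94 within the ICH mice, against 0.59 for Itgal and 0.55 for Tnfaip2. For Cfb they were Sod3, Timp1 and Tgm1 (0.99, 0.98 and 0.98), with values of 0.91, 0.86 and 0.88 within the ICH mice. Tgm1, encoding a transglutaminase, was at 263 to 541 CPM in ICH-Fabp4fl_fl and 92.7 to 235 CPM in ICH-Fabp4CKO mice. The 12 libraries form a sham and an ICH cluster, so these values describe a ranking over 15080 genes and carry no test.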

How the data were processed

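Brain RNA of 12 libraries was sequenced by the study, and the authors deposited estimated counts (expected counts) per gene for 21956 genes, not normalized, of which 7.36 to 8.69% per library were not whole numbers. The submitters' processing notes name Bowtie2 2.2.8, HISAT2, StringTie 1.3.1 and DESeq2. The genome build, the annotation and the counting tool are not given in the sources used here. Counts were rounded to whole numbers. Depth is given with the results, and levels at a few counts are limited by counting error. Groups and numbers of libraries came from the labels.

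In R 4.3.3, edgeR 4.0.16 was used with TMM factors, a filter on low counts (minimum count of 10, minimum total of 15) and quasi-likelihood tests fitted to each pair of groups, or to all 12 libraries for the interaction. P-values were adjusted over all genes tested (Benjamini-Hochberg), with a threshold of 0.05. In simulated data with known changes, the median error of the log2 fold changes and the number of false calls stayed within set limits. The share of known changes that was called is not given here, so power is not shown. CPM were scaled by TMM factors over all 12 libraries, and log2 CPM used a prior count of 2. The 9 genes, the wider complement list and the marker lists were chosen with earlier results of these data known, and 1 complement gene is not reported here. Named are the 9 genes, complement genes called in ICH against sham in Fabp4fl_fl mice or under the filter, and the 3 genes most like C1qa, C3, C4b and Cfb. C2, Hc, Gfap and other values outside this rule were chosen after their values were seen. Alternatives were relative log expression factors, total counts without TMM, DESeq2 1.42.0, no filter, 1 fit over all 12 libraries, a block for the replicate number, and leaving out each library. Motifs and figures were made in Python 3.11.15 with matplotlib 3.10.9.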

Additional observations from a re-analysis of the deposited data

How the results depend on the processing

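All 9 genes were called higher after ICH in Fabp4fl_fl mice under each alternative, and in Fabp4CKO mice under each but 1, with 8 to 9 called when libraries were left out in turn and C5ar1 lost without Sham-Fabp4CKO mouse 3. Over all genes, leaving out a library gave 4181 to 8165 calls in Fabp4fl_fl and 629 to 10099 in Fabp4CKO mice, from 6707 and 5248. The replicate numbers did not pair the libraries: the correlation of same-numbered deviations ranged from -0.575 to 0.311 between the ICH groups and from 0.023 to 0.196 for ICH against sham in Fabp4fl_fl mice. With the replicate number as a block the calls over all genes were 7262, 3681, 0, 11 and 1 for ICH against sham in Fabp4fl_fl and in Fabp4CKO mice, the genotypes after ICH, the genotypes in sham and the interaction, 9 of 9 members were called in the first pair and none in the others, and C3 between the ICH groups was 0.10 (log2).

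Between the ICH groups, calls over all genes were 0, 578 with DESeq2, 362 with all 12 libraries in one fit and 0 to 2 with libraries left out. In sham they were 16, 150 with DESeq2 and 0 to 2862 with libraries left out, and the members called were 1 with DESeq2 (Serping1) and 0 to 2 with libraries left out. For the interaction they were 3, 266 with DESeq2 and 0 to 371 with libraries left out, with 0 to 1 members. Log2 values that changed sign ranged, with libraries left out, from -0.59 to 0.76 (C3), -0.38 to 0.063 (C4b) and -0.0071 to 0.72 (Serping1) between the ICH groups. In sham the ranges were -0.30 to 0.16 (C1qa), -0.30 to 0.14 (C1qb), -0.26 to 0.16 (C1qc), -0.55 to 0.058 (C3ar1) and -0.56 to 0.19 (C5ar1), and in the interaction -0.22 to 1.27 (C3). None of the values with the changed sign passed the threshold, and the cause was not tested.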

Other observations

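The summed level of 6 endothelial markers was 454 to 1023 CPM in ICH-Fabp4fl_fl and 241 to 341 CPM in ICH-Fabp4CKO mice, without overlap. None of the 6 passed the adjusted threshold of edgeR between these groups. An unadjusted p under 0.05 was found for all 6 and for 1777 of the 14600 genes tested. The sum of 4 oligodendrocyte markers was 14451 to 21854 CPM in ICH-Fabp4fl_fl and 5533 to 9272 CPM in ICH-Fabp4CKO mice. The sum of 5 erythroid markers overlapped between the ICH groups, at 175 to 624 CPM in ICH-Fabp4fl_fl mice, and reached 1116 CPM in 1 ICH-Fabp4CKO library and was 120 to 143 CPM in the others of that group. Of 6 T cell markers tested between the ICH groups, 5 had a negative log2 value for ICH-Fabp4CKO against ICH-Fabp4fl_fl, none passed the adjusted threshold of edgeR and 2 had an unadjusted p under 0.05. Cd3g, Cd3e and Trac were lower without overlap (log2 fold changes of -1.46, -0.89 and -1.32), which held for 9.71% of all genes tested. They had few counts in the ICH libraries, 9 to 47 for Cd3g, 10 to 30 for Cd3e and 14 to 57 for Trac. The summed level of the 6 was 17.9 to 61.3 CPM over the ICH mice, of which Cd4 made up 54.0 CPM in the highest, and Cd4 was at 15.5 to 57.7 CPM in sham mice. The 5 hepatocyte markers summed to at most 2.94 CPM in any library.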
